A study of Mus musculus with 46 samples.

Results

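The comparison is of mouse liver 8 h after carbon tetrachloride (CCl4) with untreated liver, on the 5 arrays labelled as the 8 h group and the 5 labelled as control, out of 46 arrays in the series. All animals were male C57BL/6N mice of 8 to 10 weeks. The treated mice had received CCl4 once, at 1.6 g/kg in olive oil, by intraperitoneal injection. The controls were untreated, without oil, although their treatment label also carries the name of the compound, so the injection, the oil and the compound cannot be told apart. The sources used here do not say at which hour animals were killed. Each of 18193 genes was read from 1 Affymetrix probe set, the one with the highest mean over all arrays among those naming that gene alone, and 13239 genes passed the filter on low values. The arrays of a group are numbered, but the labels do not say whether each came from a different mouse. The p-values therefore rest on array-to-array spread that could be technical.

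CCl4 is turned into a reactive radical by cytochrome P450 enzymes, chiefly Cyp2e1, in the hepatocytes around the central veins. The radical attacks membrane lipids and proteins, and among the first structures to suffer is the endoplasmic reticulum (ER), where secreted proteins are folded. Cells answer misfolded protein in the cytosol with the heat shock response, and in the ER with the unfolded protein response (UPR), which raises chaperones and slows translation. Part of the UPR is shared with the integrated stress response, in which the transcription factor Atf4 raises genes of amino acid supply.

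The tissue label was checked against hepatocyte markers, which were high on every array. The mean log2 level of 13 identity markers ran from 13.54 to 13.68 on the untreated arrays and from 13.34 to 13.53 at 8 h. Albumin (Alb) lay between 14.74 and 14.76 on every array at 8 h, and its difference from control was -0.02 ± 0.04 (log2, standard error, adjusted p = 0.686). With cyclic loess that difference became 0.21 (adjusted p = 0.00104). Within the 8 h and the control group, an array correlated with the others at a median r of 0.9828 or more across the genes tested, which are not independent replicates. In the neighbouring groups the lowest such median was 0.9818 at 2 h (array 3) and 0.9498 at 1 d (array 1). The 3 prime minus 5 prime value of the Gapdh control probe sets, which reflect how complete the RNA was, differed: the mean was 0.17 ± 0.08 (SD, n = 5) at 8 h and 0.35 ± 0.06 (SD, n = 5) in controls (two-sided exact permutation test, adjusted p = 0.0476 over 6 array measures). It was lower on every array at 8 h (0.05 to 0.26) than on every control (0.27 to 0.43). With this value as a covariate 4531 genes were called, 4416 of them among the 5549 called without it.

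In all, 5549 genes differed from control (limma, adjusted p under 0.05, 41.9% of those tested), and only these are called higher or lower here, or said to rise or fall. Of these, 2342 were higher (17.7%) and 3207 lower (24.2%). Most changes were small: 58.1% of the called genes differed by less than 1.5-fold. By at least 2-fold 873 genes differed (6.59%): 476 were higher (3.60%) and 397 lower (3.00%), and by at least 4-fold 99 and 34. The median log2 fold change of all genes was -0.04. The groups did not overlap for 32.9% of genes, with the arrays at 8 h wholly above the controls for 13.9% and wholly below for 19.0%. Of 217 genes that could be named by the rule used, 123 have another probe set on the array. For 48 of these one such probe set changed by under 0.25 times as much as the one used, and for 19 one differed in sign. Examples are the tubulin Tubb6 (2.96 against -0.18), the ribosome factor Nip7 (2.03 against -0.14) and the annexin Anxa2 (3.19 against 0.14), so a value given below is that of 1 probe set. Every control array lay under 5.56, the median of all values and the level a probe set had to pass on 5 arrays to be tested, for Hspa1a, Psat1, Sult1e1, Cxcl2, Cidec, Dusp4, Aldh18a1, Slc7a11, Cebpd, Abcc4, Relb, Pdgfra, Acnat2 and Cryab, and every 8 h array for Dixdc1, Rbl2 and Cryab. For these genes the size of the difference is only that between the array values. In whole tissue, fewer cells of a type and less RNA per cell cannot be told apart.

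**Figure D1:**
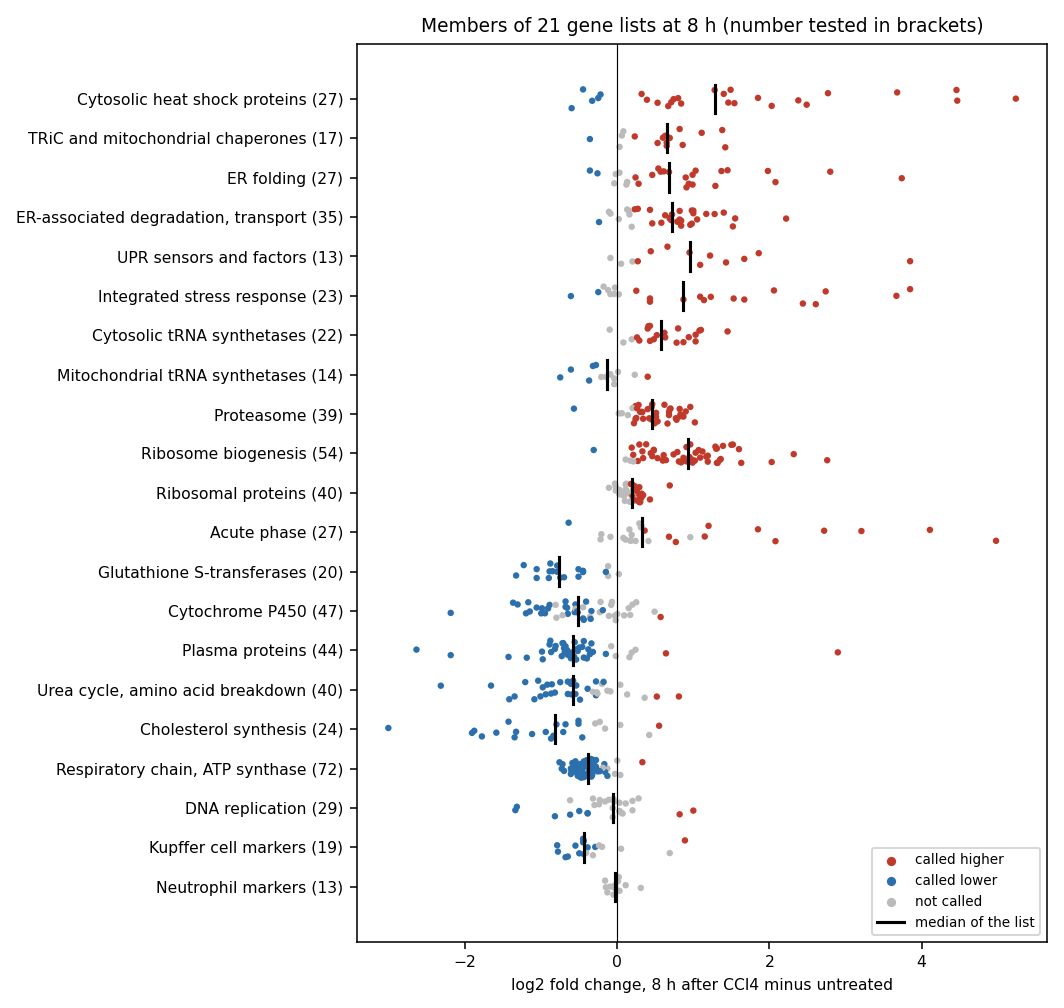
Log2 fold change at 8 h against untreated liver (x axis) for every tested member of 21 gene lists (rows), with points coloured by call and a bar at each list's median. Chaperone, ER and ribosome biogenesis lists lie mostly to the right of 0, with medians from 0.65 to 1.28 for the first 6 lists, and P450, plasma protein, cholesterol and respiratory chain lists lie mostly to the left.

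Genes of protein folding in the cytosol were among the largest rises. Hspa1a, a stress-induced Hsp70 chaperone, read 3.79, 3.85, 4.25, 4.49 and 3.70 on the untreated arrays and 9.38, 8.42, 9.24, 9.53 and 9.72 at 8 h. The array values lay 5.24 ± 0.48 apart on the log2 scale with no overlap, and all controls were under 5.56. Its near-identical copy Hspa1b was higher by 4.46 ± 0.55, and the signals of these copies may be mixed. For Hspb1, the small heat shock protein Hsp27, the values were 8.39, 8.29, 8.37, 7.81 and 7.78 in controls against 12.96, 12.86, 12.29, 12.57 and 12.30, a rise of 4.47 ± 0.43. Hsph1, an Hsp110 exchange factor, rose by 3.68 ± 0.40.

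Of 27 cytosolic chaperones and co-chaperones tested 22 were higher and 5 lower, with a median of 1.28 against -0.04 for all genes. After the shift to 1 median and with cyclic loess 4 were lower. Those that fell included the lens and muscle chaperone Cryab at -0.60 ± 0.19 and the Hsp90 co-chaperone Fkbp4 at -0.45 ± 0.13. Other probe sets of these 2 genes gave -0.04 and -0.03 for Cryab and -0.11 and 0.01 for Fkbp4. The call of Cryab ended with the Gapdh control value as a covariate (-0.38, adjusted p = 0.171) and with Benjamini-Yekutieli adjustment (adjusted p = 0.0915). Hspa1a was already high at 2 h, where its mean was 10.07 against 9.26 at 8 h, a difference of -0.81 that was not called (adjusted p = 0.184), and it was 4.33 lower at 1 d than at 8 h. Hspb1 by contrast stood 2.07 above its 2 h level. Of 17 subunits of the cytosolic chaperonin TRiC and mitochondrial chaperones 13 were higher and 1 lower, with a median of 0.65. The mitochondrial pair Hspd1 and Hspe1 rose by 1.38 ± 0.11 and 1.42 ± 0.13, and the TRiC subunit Cct7 by 1.11 ± 0.12, whereas Trap1, a mitochondrial Hsp90, fell by 0.36.

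In the ER, 20 of 27 chaperones and oxidoreductases rose and 2 fell, with a median of 0.68. Creld2, a protein of the ER that stress induces, had values of 7.77, 7.45, 9.18, 8.35 and 7.90 in controls and 11.78, 11.82, 11.83, 12.03 and 11.86 at 8 h. The 8 h arrays were nearly alike, whereas 1 control, array 3, stood higher than the rest. The gene rose 13.3-fold, by 3.74 ± 0.33. Hspa5, the major ER Hsp70 (BiP), went from 11.72, 11.82, 12.13, 12.19 and 11.97 to 13.94, 13.94, 14.08, 13.90 and 13.86, a rise of 1.98 ± 0.22. Dnajb9, an Hspa5 cochaperone, rose by 2.80 ± 0.26 and Manf, a secreted ER stress protein, by 2.08 ± 0.23. The 2 that fell were the Hspa5 exchange factor Sil1 (-0.36 ± 0.07) and the prolyl isomerase Fkbp2 (-0.26 ± 0.06).

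Genes of degradation and transport at the ER moved the same way, with 27 of 35 higher, 1 lower and a median of 0.72. Syvn1, the ubiquitin ligase Hrd1 that marks misfolded ER proteins, read 7.74, 7.75, 7.88, 8.42 and 8.27 in controls and 10.12, 9.92, 10.37, 10.63 and 10.11 at 8 h. It rose by 2.22 ± 0.22. Sec24d, a coat subunit of vesicles leaving the ER, rose by 1.55 ± 0.13, Derl1 of the retrotranslocation channel by 1.52 ± 0.12 and Srprb, of the receptor for signal recognition particles, by 1.40 ± 0.09. The lectin Os9 was lower by 0.24 ± 0.07, but not with cyclic loess (-0.13, adjusted p = 0.128), and another probe set gave 0.19. Against 2 h, 24 of the 27 folding genes and 31 of the 35 degradation and transport genes were higher at 8 h, where 20.4% of all genes were. Against 1 d, 2 folding genes were higher at 8 h and 9 lower, a split that became 6 and 6 with cyclic loess.

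The sensors and factors of the UPR were called in 10 of 13 cases, each time higher (median 0.95). Ddit3, the transcription factor CHOP, read 6.83, 6.77, 6.95, 7.15 and 6.80 in controls and 10.98, 10.98, 10.45, 10.90 and 10.45 at 8 h. These groups lay 3.85 ± 0.22 apart, but the gene's other probe set gave 0.27. Wfs1, an ER membrane protein, rose by 1.86 ± 0.15, the phosphatase subunit Ppp1r15a (Gadd34), which restores translation, by 1.67 ± 0.16, and the sensor kinase Eif2ak3 (PERK) by 1.43 ± 0.21.

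Promoters of these genes were searched for the ER stress element, spelled CCAAT, then any 9 bases, then CCACG, on both strands of the 250 bases before each start in RefSeq's table for GRCm38.p6. The windows below were chosen because they hold that element in genes of this section, with 1 start listed for each gene. The element is in capitals, printed 5′ to 3′ on the gene's strand, and appears as its reverse complement in Creld2.
Creld2: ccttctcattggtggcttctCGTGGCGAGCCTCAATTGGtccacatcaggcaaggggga
Syvn1: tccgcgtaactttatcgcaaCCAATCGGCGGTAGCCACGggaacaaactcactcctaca
Hspa5: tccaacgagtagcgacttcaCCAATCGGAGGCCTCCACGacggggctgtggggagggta
Dnajc3: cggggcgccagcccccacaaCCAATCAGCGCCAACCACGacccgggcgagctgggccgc
Hsp90b1: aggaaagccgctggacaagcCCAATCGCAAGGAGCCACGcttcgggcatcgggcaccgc
Pdia6: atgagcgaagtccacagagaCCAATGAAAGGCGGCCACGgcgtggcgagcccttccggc
Canx: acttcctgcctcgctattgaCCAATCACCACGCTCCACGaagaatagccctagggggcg
They lie at chr15:88819500-88819558 on the plus strand for Creld2, chr19:6046512-6046570 (plus) for Syvn1, chr2:34772005-34772063 (plus) for Hspa5 and chr14:118937807-118937865 (plus) for Dnajc3. Those of the others are chr10:86705618-86705676 (minus) for Hsp90b1, chr12:17266471-17266529 (plus) for Pdia6 and chr11:50325780-50325838 (minus) for Canx. The element ends 107 bases before the start in Creld2, 25 in Syvn1 and 46 in Hspa5, and Hsp90b1 holds a further match, 88 bases before its start, that is not printed.

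The letters were in 18 of 13554 promoters of genes tested (0.133%) and in 18 of the 10637 genes (0.169%), and in 8 of the 24 folding genes with a listed promoter. Of the 18 genes that hold them, 11 were higher at 8 h (61.1%) and 1 was lower, against 17.9% and 24.5% of all genes with a listed promoter. Of those 18, 10 belonged to the ER lists and 9 of these rose, including the chaperone partners Dnajc3 at 1.29 ± 0.12 and Hsp90b1 at 0.90 ± 0.12 and the disulphide isomerase Pdia6 at 0.68 ± 0.11. The lectin chaperone Canx holds the letters and was not called (0.03 ± 0.07, adjusted p = 0.79). Outside the lists 2 of 8 rose, Acnat2, an acyltransferase, by 1.02 ± 0.32 and Alg12, of N-glycan assembly, by 0.55 ± 0.10. Of the 16 folding genes without the letters in this window, 11 rose. A match of letters is a description and not a binding site.

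**Figure D2:**
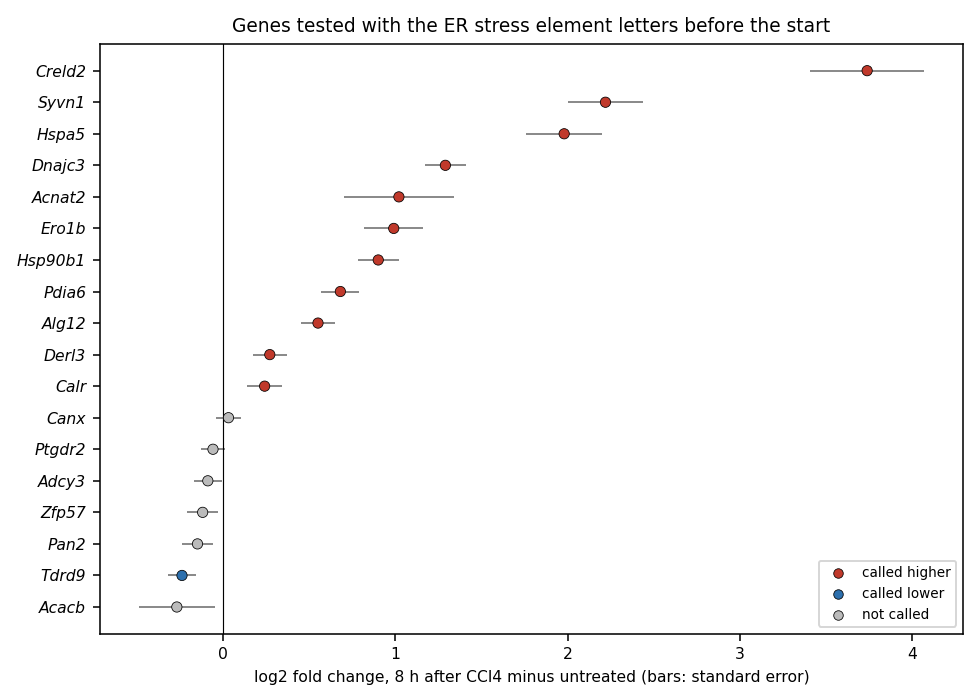
Log2 fold change at 8 h against untreated liver (x axis, bars are standard errors) for the 18 tested genes whose 250 bases before the start hold the ER stress element letters (rows). From Creld2 at 3.74 down to Calr at 0.24, 11 genes are called higher, and Tdrd9 at -0.24 is called lower.

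Factors of the integrated stress response were higher in 15 of 23 cases and lower in 2, with a median of 0.87. Gadd45a, a growth arrest gene, rose by 3.67 ± 0.39, Trib3, a pseudokinase induced by CHOP, by 2.74 ± 0.35, and the stress-induced growth arrest gene Ndrg1 by 2.61 ± 0.44. The values of Ndrg1 at 8 h were uneven, at 11.29 and 10.66 on arrays 3 and 5 and between 8.65 and 9.08 on the other 3. The angiogenic factor Vegfa fell by 0.61 ± 0.13, and the proapoptotic Bbc3 (Puma) differed by -0.25 ± 0.08, a call lost without control array 1 (-0.17, adjusted p = 0.103) or without array 5 at 8 h (-0.21, adjusted p = 0.0592).

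Within amino acid supply the genes split. Psat1, which makes serine, read 4.04, 3.79, 4.18, 3.91 and 3.60 in controls and 8.12, 8.92, 9.90, 8.26 and 9.71 at 8 h. Every control lay under 5.56, and the gene rose by 5.08 ± 0.28, with no overlap. Aldh18a1, of proline synthesis, rose by 2.38 ± 0.25, Psph, the last step of serine synthesis, by 1.52 ± 0.21, and the asparagine synthetase Asns by 1.15 ± 0.30. Other probe sets of Aldh18a1 ran from 0.30 to 0.56. Asns overlapped between the groups, since controls 1 and 5 stood at 8.78 and 8.24 and the 8 h arrays between 8.12 and 9.29. In the same list the one-carbon enzyme Mthfd1 fell by 1.40 and the transsulphuration enzyme Cbs by 1.06, so that 7 of 16 rose and 6 fell. Among 19 amino acid transporters 6 rose and 5 fell, where 17.7% of all genes rose and 24.2% fell. The cystine carrier Slc7a11 rose by 1.74 ± 0.32, its partner Slc3a2 by 1.72 ± 0.25 and the cationic carrier Slc7a1 by 1.54 ± 0.13. The liver's own cationic carrier Slc7a2 fell by 1.49 ± 0.28.

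Aminoacyl-tRNA synthetases charge transfer RNAs with amino acids. Of 22 cytosolic synthetases and their cofactors 19 rose and 0 fell, with a median of 0.57. Eef1e1, a scaffold of the synthetase complex, rose by 1.45 ± 0.19, the glycine enzyme Gars by 1.10 ± 0.15 and the arginine enzyme Rars by 1.08 ± 0.13. Of 14 mitochondrial synthetases 1 rose and 5 fell, with a median of -0.13. Nars2 fell by 0.75 ± 0.15 and Lars2 by 0.61 ± 0.12. Ears2 was called higher by 0.40 ± 0.11 from the probe set used, but another of its probe sets was called lower, at -0.30 (adjusted p = 0.0375), so its direction is not settled. The difference between the compartments was not tested.

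The composite site of Atf4 with a C/EBP partner, spelled TGATGNAA, was searched on both strands of the same windows. These were chosen as genes of amino acid stress that rose and have 1 start listed, with the letters in capitals. The Slc7a11 window holds a second match in lower case, as the reverse complement, 39 bases before the start.
Slc7a11: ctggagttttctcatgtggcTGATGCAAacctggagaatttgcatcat
Chac1: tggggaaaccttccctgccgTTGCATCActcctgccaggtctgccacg
Fgf21: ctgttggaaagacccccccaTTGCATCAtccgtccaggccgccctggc
Nupr1: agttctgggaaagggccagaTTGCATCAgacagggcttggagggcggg
Asns: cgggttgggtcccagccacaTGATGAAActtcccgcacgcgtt
Gars: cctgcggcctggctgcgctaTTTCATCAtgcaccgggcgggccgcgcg
The windows are chr3:50443652-50443699 (minus) for Slc7a11, chr2:119351029-119351076 (plus) for Chac1, chr7:45615602-45615649 (minus) for Fgf21, chr7:126625553-126625600 (minus) for Nupr1, chr6:7693210-7693252 (minus) for Asns and chr6:55037951-55037998 (plus) for Gars. The letters were in 6 of 20 integrated stress response genes with a promoter (30%) and in 3 of 15 cytosolic synthetases (20%). They were in 2 of 15 amino acid synthesis genes (13.3%) and 2 of 13 amino acid transporters (15.4%), against 2.57% of all genes with a promoter. Of all 273 genes tested that hold them, however, 19.4% were higher and 23.4% lower at 8 h, near the 17.9% and 24.5% of all genes with a promoter. The letters of the antioxidant response element (TGACNNNGC) and the E-box (CACGTG) gave 19.6% and 20.3% higher. Heat shock element letters were in 1 of 24 cytosolic chaperones with a promoter and 2 of 14 TRiC and mitochondrial chaperones, against 0.451% of all genes. Of the 48 genes that hold them 25% were higher and 25% lower. Sterol response element letters were in 0 of 20 cholesterol synthesis genes, against 0.0752% of all genes.

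Genes of the proteasome rose broadly but modestly. Of 39 proteasome subunits and assembly factors 34 were higher and 1 lower, with a median of 0.46 and a single gene past 2-fold. That gene, the lid deubiquitinase Psmd14, read 9.05, 9.18, 9.40, 9.12 and 9.05 in controls and 10.14, 10.21, 10.10, 10.24 and 10.24 at 8 h, a rise of 1.02 ± 0.10. The core subunit Psmb7 rose by 0.90 ± 0.13 and the base ATPase Psmc5 by 0.87 ± 0.09, while the assembly chaperone Psmg1 fell by 0.57 ± 0.07. Psmb9 and Psmb8, interferon-induced core subunits outside this list, went the other way, by -0.92 ± 0.17 and -0.52 ± 0.11. Zfand2a, a proteasome partner induced by arsenite, rose 15.3-fold (3.93 ± 0.31). Of 26 autophagy and lysosome genes 9 rose and 5 fell. The adaptor Sqstm1 (p62) rose by 2.67 ± 0.18, and the kinase Ulk2 and the lysosomal membrane protein Lamp2 fell by 1.01 and 0.69.

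Genes of ribosome assembly were higher almost throughout. Of 54 ribosome biogenesis factors 50 rose and 1 fell, with a median of 0.93, and 45 of them lay wholly above the controls. Nop58, a core protein of box C/D small nucleolar particles, read 6.96, 6.91, 7.14, 7.18 and 7.67 in controls and 9.77, 9.81, 10.11, 9.90 and 10.06 at 8 h. It rose by 2.76 ± 0.25, the small-subunit factor Tsr1 by 2.32 ± 0.25 and the large-subunit factor Nip7 by 2.03 ± 0.16, while Nop10 fell by 0.31 ± 0.07 (-0.17, adjusted p = 0.0549 with cyclic loess). The medians by array ranged from 0.63 on array 1 to 1.24 on array 3.

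Translation factors rose in 26 of 35 cases, with a median of 0.31, led by Eif1a at 1.80 ± 0.19, the cap-binding Eif4e at 1.64 ± 0.15 and Eif6 at 1.64 ± 0.12. The ribosomal proteins themselves moved little: 19 of 40 rose and 0 fell, with a median of 0.20, and 37 rose with cyclic loess. Rplp0, of the ribosomal stalk, rose by 0.43 ± 0.06 and Rpl12 by 0.69 ± 0.16. At 8 h 35 of the 40 were above their 2 h level and 39 were below their 1 d level, where 20.8% of all genes were below 1 d. For ribosome biogenesis 45 were above 2 h, and against 1 d 16 were above and 8 below.

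Myc, a regulator of ribosome and nucleotide genes, had values of 6.29, 5.84, 6.01, 5.74 and 5.62 in controls and 8.45, 8.92, 9.38, 8.65 and 8.95 at 8 h. It rose by 2.97 ± 0.32 and stood 1.17 above its 2 h level and 0.86 above 1 d. In nucleotide and polyamine synthesis 13 of 22 genes rose and 5 fell. The polyamine enzymes Srm, Odc1 and Sat1 rose by 1.47 ± 0.14, 1.05 ± 0.22 and 1.75 ± 0.25, and the ribose phosphate enzyme Prps2 fell by 1.16 ± 0.16. The E-box was in 3 of 52 promoters of ribosome biogenesis genes (5.77%), against 8.03% of all promoters.

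Few genes of DNA synthesis or division were called. Of 29 DNA replication genes 2 rose and 7 fell, and of 22 mitosis genes 0 rose and 1 fell. Of all genes 41.9% were called, 17.7% higher and 24.2% lower. Falls among the replication genes were thus about as frequent as over all genes. Thymidine kinase Tk1 read 7.78, 7.66, 7.91, 7.64 and 7.52 in controls and 6.78, 6.40, 5.88, 6.31 and 6.55 at 8 h, a fall of 1.32 on the log2 scale. Mcm10 fell by 1.34, but its other probe sets gave -0.03 and 0.03. The ribonucleotide reductase subunit Rrm2, which makes deoxynucleotides, rose by 1.00 ± 0.22. The division factor Foxm1 was the mitosis gene called (-0.15 ± 0.06, adjusted p = 0.0354), and that call ended with cyclic loess (-0.12, adjusted p = 0.128), without array 2, 3 or 4 at 8 h or without control array 1 or 4 (adjusted p from 0.0573 to 0.119). Cyclin D1 (Ccnd1) was not called, at -0.40 ± 0.24 (adjusted p = 0.188). The cell cycle inhibitor Cdkn1a (p21) rose by 1.79 ± 0.30, with arrays 1 and 2 lowest at 7.81 and 7.25 and the other 3 between 8.48 and 8.77. Of the genes that fell in the G1 list, the Max partner Mxi1 fell by 0.85 ± 0.10 and the pocket protein Rbl2 by 0.72 ± 0.14.

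Early transcription factors were past their peak in part. Of 22 such genes 11 rose against control and 0 fell, yet 12 were below their 2 h level and 2 above. Atf3 read 6.16, 6.25, 5.89, 6.28 and 6.51 in controls and 10.31, 9.94, 9.38, 10.07 and 9.14 at 8 h, a rise of 3.55 ± 0.32, and stood 1.45 below 2 h. Klf6 and Maff rose by 3.44 ± 0.37 and 2.31 ± 0.30. Fos was back near control, at 0.43 ± 0.38 (adjusted p = 0.397). Among feedback genes of MAP kinase signalling the phosphatases Dusp4 and Dusp5 rose by 2.69 ± 0.34 and 2.04 ± 0.16 and were also above 2 h, whereas Tob1, of mRNA decay, fell by 1.33. Ifrd1, a transcriptional coregulator, read 6.24, 6.56, 6.79, 7.05 and 7.13 in controls and 11.90, 11.50, 12.34, 11.65 and 12.23 at 8 h, a rise of 5.17 ± 0.35.

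Of 23 p53 targets 8 rose and 6 fell, with Trp53inp1 at 2.05 ± 0.28 and the kinase Plk2 at -0.90 ± 0.17. Of 31 cell death and survival genes 8 were higher and 9 lower. Over all genes 17.7% were higher and 24.2% lower, so falls in both lists were about as frequent as over all genes. The TWEAK receptor Tnfrsf12a rose by 2.58 ± 0.27 and the antiapoptotic Mcl1 by 1.52 ± 0.22 (4 of its 5 other probe sets lay between -0.09 and 0.04), while the effector caspase Casp6 fell by 1.17 ± 0.14 and Cideb by 0.98 ± 0.12.

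Antioxidant genes rose in part. Of 32 target genes of the antioxidant factor Nrf2 10 were higher and 8 lower, where 17.7% of all genes were higher and 24.2% lower. Srxn1, which repairs oxidised peroxiredoxins, read 7.07, 6.88, 6.94, 6.92 and 6.95 in controls and 11.91, 11.70, 12.26, 11.47 and 12.11 at 8 h, a rise of 4.94 ± 0.34 (0.78 with 1 of its 3 other probe sets). Txnrd1, a thioredoxin reductase, rose by 2.45 ± 0.17, and the glutathione synthesis enzyme Gclc by 1.97 ± 0.25. Heme oxygenase Hmox1 rose by 1.43 ± 0.27, with values of 7.48, 7.71, 8.71, 8.86 and 8.43. The pump Abcc3 fell by 0.75 ± 0.22 and Aox1, an aldehyde oxidase, by 0.67 ± 0.12. No glutathione S-transferase rose: 17 of 20 fell, with a median of -0.77. Gsta3 read 12.15, 12.29, 12.09, 12.31 and 12.12 in controls and 11.38, 11.28, 10.66, 10.95 and 10.53 at 8 h, a fall of 1.23, and Gstt3 fell by 1.33.

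The metal-binding metallothioneins rose, but from uneven levels. Mt2 read 9.69, 7.58, 7.54, 7.40 and 8.85 on the untreated arrays and 12.50, 10.97, 13.35, 13.46 and 13.42 at 8 h. Controls 1 and 5 were the highest controls and array 2 the lowest at 8 h, and the groups did not overlap. Its rise was 4.53 ± 0.57, and that of Mt1 4.48 ± 0.68. The metal response letters TGCGCNC or TGCACNC occurred 3 times before the start of Mt2, as in 1.91% of promoters or more, and once before Mt1, as in 28.3%. Of the 26 genes of metal and iron handling 6 rose and 7 fell, where 17.7% of all genes rose and 24.2% fell. Those that fell included the hepcidin coreceptor Hjv (-1.03 ± 0.19) and the iron exporter Slc40a1 (-0.68 ± 0.16).

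**Figure D3:**
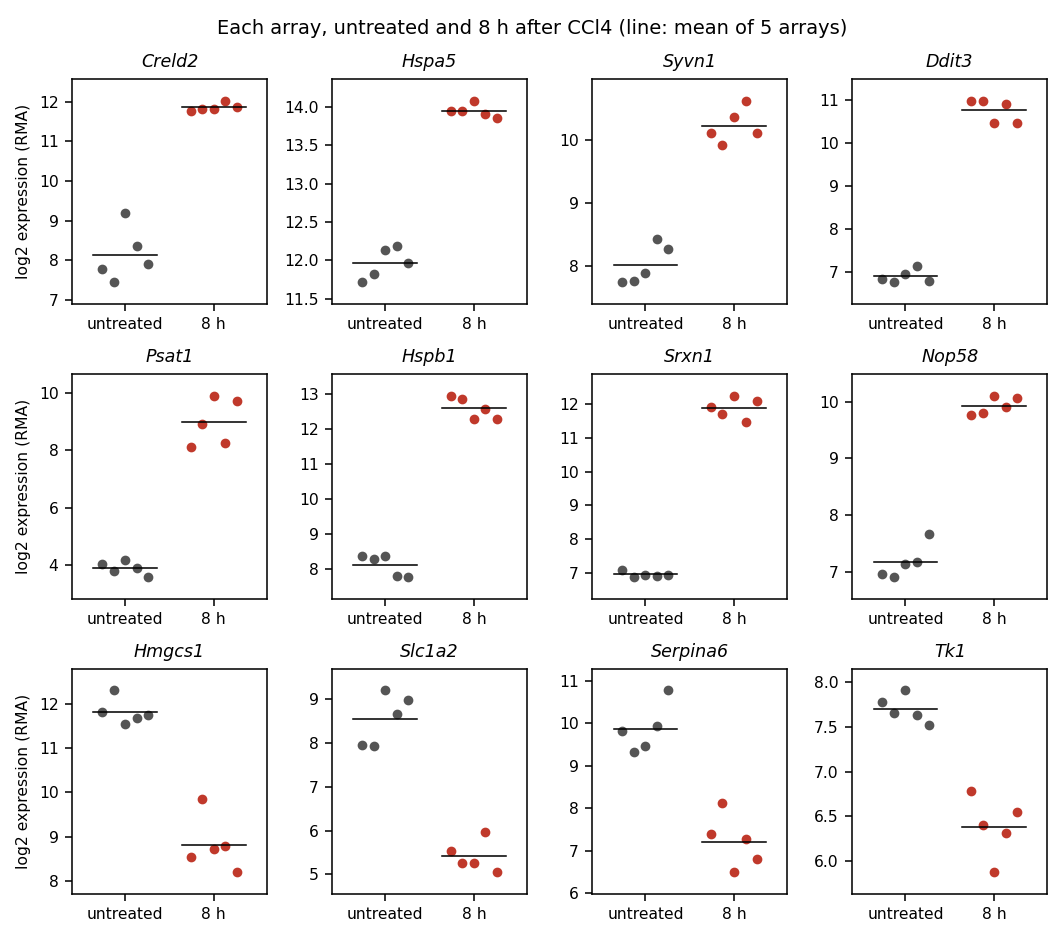
Log2 expression (y axis, RMA values, a scale per panel) of 12 genes on each of the 5 untreated arrays and the 5 arrays at 8 h, with a line at each mean. In all 12 panels the groups do not overlap; Creld2 to Nop58 are higher and Hmgcs1, Slc1a2, Serpina6 and Tk1 lower at 8 h.

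Drug metabolism fell. Of 47 genes tested, the cytochrome P450 enzymes and Cyb5a, 26 were lower and 1 higher, with a median of -0.52. Cyp7a1, which starts bile acid synthesis from cholesterol, read 9.29, 9.21, 10.77, 10.49 and 9.23 in controls and 8.34, 9.31, 7.16, 7.28 and 5.91 at 8 h. The groups overlapped, since array 2 at 8 h lay above 3 controls, and it fell by 2.19. Cyp1a2 fell by 1.31 and Cyp2c23 by 1.37. Cyp2e1, which activates CCl4, was lower on every array at 8 h (13.45 to 13.71) than on every control (13.81 to 14.17), but its -0.45 ± 0.27 was not called (adjusted p = 0.183; 0.000565 with only these 2 groups in the fit). Cyp3a13 was called higher by 0.57 ± 0.19, a call lost without array 4 at 8 h (0.44, adjusted p = 0.0697). At 8 h 26 of the 47 were above their 1 d level, where 10.9% of all genes were.

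Among 30 conjugating enzymes 16 fell and 3 rose. The methyltransferase Inmt fell by 1.95 and Ugt2b1, a glucuronosyltransferase, by 1.32. Sult1e1, the estrogen sulfotransferase, went the other way: it read 4.09, 3.98, 3.84, 3.95 and 3.90 in controls and 8.00, 7.56, 9.46, 8.78 and 7.41 at 8 h, a rise of 4.29 ± 0.19. Its SD was 0.86 at 8 h and 0.09 in controls, while the standard error rests on all groups of the fit. Its control, 2 h and 1 d arrays all lay under 5.56. Its means were 4.13 at 2 h and 4.14 at 1 d, and it stood 4.11 ± 0.19 and 4.10 ± 0.19 above them. Ugt2b37 was called higher (1.47 ± 0.41) but read 9.78, 8.99, 5.87, 6.26 and 8.26 at 8 h, and without arrays 1 and 2 its difference was 0.44 (adjusted p = 0.351).

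Hepatocyte regulators and zonal genes were mostly lower. Of 38 nuclear receptors and hepatocyte transcription factors 20 fell and 5 rose (median -0.44). Nr0b2, the bile acid-induced repressor SHP, fell by 2.25 and Nr5a2, its partner in bile acid control, by 1.07. The stress and acute phase factors Cebpd and Cebpb rose by 1.87 ± 0.22 and 1.23 ± 0.19. Of 23 pericentral genes 15 fell and 0 rose, and of 21 periportal genes 14 fell and 2 rose, with medians of -0.66 and -0.58. The difference between the zones was not tested. Slc1a2, a pericentral glutamate transporter, read 7.95, 7.92, 9.19, 8.66 and 8.97 in controls and 5.53, 5.26, 5.25, 5.97 and 5.06 at 8 h. That is -3.12 ± 0.29, without overlap, whereas its 4 other probe sets ran from -0.41 to 0.14. Oat, an ornithine aminotransferase, fell by 2.32, Aldh1a1 by 1.48 and the glutamine synthetase Glul by 1.10. Periportal E-cadherin (Cdh1) fell by 1.87, the histidase Hal was at -1.66 and Aldh1b1 at -1.74, while the apolipoprotein Apoa4 rose by 2.41 ± 0.29.

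Genes of amino acid breakdown and the urea cycle fell in 28 of 40 cases and rose in 2, with a median of -0.58. Csad, of taurine synthesis, fell by 1.42, and the aspartate aminotransferase Got1 rose by 0.81 ± 0.21. Against 1 d 23 of the 40 were higher at 8 h. In glucose metabolism 6 of 36 rose and 13 fell. Slc2a1, a glucose transporter that healthy hepatocytes carry little of, read 6.37, 6.17, 6.55, 5.76 and 6.18 in controls and 9.22, 8.82, 9.88, 9.49 and 9.51 at 8 h. It rose by 3.18 ± 0.26 and was above 2 h by 3.21 and above 1 d by 1.67. The glycogen targeting subunit Ppp1r3c fell by 2.17 and the insulin receptor substrate Irs1 by 1.41. Igfbp1, a secreted binding protein of insulin-like growth factors, rose by 3.42 ± 0.50 from controls that ran from 7.24 to 11.54 to 8 h values of 13.01 to 13.74.

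Cholesterol synthesis had the lowest median of the lists with at least 15 genes, at -0.82, with 18 of 24 lower and 1 higher. Hmgcs1, an early enzyme of the pathway, read 11.82, 12.31, 11.55, 11.69 and 11.75 in controls and 8.53, 9.85, 8.72, 8.79 and 8.20 at 8 h. Array 2 stood above the other 4 at 8 h, here and in Msmo1, Fdft1 and Idi1, and all 4 genes were still lower on it than on any control. Hmgcs1 fell by 3.01 ± 0.29, Msmo1 by 1.91 ± 0.29, Fdft1 by 1.88 ± 0.22 and Idi1 by 1.78 ± 0.27. Ggps1, of isoprenoid synthesis, rose by 0.55 ± 0.11. Against 2 h 17 of the 24 were lower at 8 h and 0 higher, where 15.4% of all genes were lower.

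Of 27 genes of fatty acid synthesis 13 were lower and 2 higher: the sterol and fat regulator Srebf1 fell by 1.68, the acyltransferase Gpam by 1.54 and the desaturase Fads1 by 1.36. Lpin1, a phosphatidate phosphatase, was called higher by 1.23 ± 0.39 over controls that ran from 7.79 to 9.90, and without control arrays 1 and 2 its difference was 0.61 (adjusted p = 0.278). Of 46 genes of PPAR alpha and fatty acid oxidation 28 fell and 3 rose, with a median of -0.42. The ketone enzyme Bdh1 fell by 1.51, while the hormone Fgf21 rose by 2.06 ± 0.33. Of 37 lipid droplet and lipoprotein genes 15 fell and 8 rose, but 7 and 11 with cyclic loess. The sterol exporter Abcg5 fell by 1.56 and the lysosomal lipase Lipa by 1.29, and the lipid droplet protein Cidec rose by 2.79 ± 0.41. Of 20 genes of bile acid synthesis 13 fell and 0 rose, with Akr1d1 at -2.17 ± 0.40 and Hsd3b7 at -1.28 ± 0.14. Of 24 transporters of bile salts, anions, cations and drugs 14 fell and 3 rose. The uptake carrier Slco1b2 fell by 1.24 and the bile salt export pump Abcb11 by 1.11, whereas the sinusoidal pump Abcc4 rose by 1.21 ± 0.35.

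Genes of respiration fell by small, even steps. Of 72 nuclear-encoded respiratory chain subunits 66 were lower and 1 higher, 61 of them without overlap, with a median of -0.39 and none past 2-fold. Ndufs7 of complex I read 9.95, 10.13, 10.09, 10.05 and 9.97 in controls and 9.34, 9.53, 9.02, 9.45 and 9.23 at 8 h, a fall of 0.73, and Ndufb10 fell by 0.76. Cytochrome c (Cycs), which also takes part in apoptosis, rose by 0.33 ± 0.09. Its other probe sets gave 0.43, 0.14 and -0.20, and the call ended with the mean of all probe sets (0.18, limma, adjusted p = 0.068). By array the list's median ran from -0.50 to -0.29. With cyclic loess 54 of the 72 were lower, with a median of -0.24. In the citric acid cycle and peroxisome list 23 of 37 fell and 1 rose. Aco1 fell by 0.96 and Idh2 by 0.88, and Pdhb of pyruvate dehydrogenase rose by 0.85 ± 0.11.

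Of 44 coagulation, complement and other plasma proteins 37 were lower and 2 higher (median -0.59). Serpina6, the corticosteroid-binding globulin, read 9.81, 9.31, 9.46, 9.93 and 10.77 in controls and 7.38, 8.12, 6.50, 7.27 and 6.80 at 8 h, a fall of 2.64, and plasma kallikrein Klkb1 fell by 2.19. Serpina7, the thyroxine-binding globulin, rose by 2.90 ± 0.61. In a list of 28 secreted hepatocyte factors, which shares members with the plasma proteins, 7 genes rose and 6 fell. Its median was -0.07 (0.07 with cyclic loess), and 17.7% of all genes rose and 24.2% fell. In the growth hormone axis and its sex-biased targets 13 of 24 fell and 1 rose, including the receptor Ghr (-1.75 ± 0.18), the repressor Bcl6 (-2.33 ± 0.54) and the male-biased Hsd3b5 (-2.17 ± 0.42), a member of a family of close copies. Of the largest falls, Nrep was at -3.85, the uridine phosphorylase Upp2 at -3.29 and the succinate receptor Sucnr1 at -3.21, and Hsd3b2 was at -2.75.

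Acute phase genes rose unevenly across arrays. Of 27 acute phase proteins 11 were higher and 1 lower, and 17 were higher with cyclic loess. Lcn2, an iron-siderophore binding protein, read 6.39, 4.51, 5.25, 5.19 and 6.68 in controls and 8.06, 8.07, 12.47, 12.06 and 12.26 at 8 h. Arrays 1 and 2 at 8 h were between the controls and the other 3. Serum amyloid Saa2 read 9.99, 6.90, 7.83, 6.69 and 7.84 in controls and 9.77, 10.56, 12.95, 13.44 and 13.09 at 8 h, so that control array 1 lay above array 1 at 8 h. Its rise was 4.11 ± 0.88 and that of Lcn2 4.98 ± 0.80. The endotoxin coreceptor Cd14 rose by 2.72 ± 0.33, and Crp, which is no major acute phase protein in mice, fell by 0.64. The median of the list over the control mean was 0.09 and 0.21 on arrays 1 and 2 and 0.41, 0.62 and 0.41 on arrays 3 to 5.

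The IL-6 and STAT3 list had 14 of 24 genes higher and 2 lower. The feedback inhibitor Socs3 rose by 1.63 ± 0.44 and the oncostatin M receptor Osmr by 1.40 ± 0.19, while the related receptor Lifr fell by 1.49. Other probe sets of Osmr gave 0.04 and 0.16. The call of Socs3 ended with the Gapdh control value as a covariate (1.02, adjusted p = 0.098). Of 24 NF-kB factors and cytokines 4 were higher and 4 lower, where 17.7% of all genes were higher and 24.2% lower. These shares of all genes also stand beside the chemokine and interferon lists that follow. Rela was at 0.85 ± 0.10, Relb at 0.61 ± 0.16 and Il18 at -1.01 ± 0.14. Of 21 chemokines and receptors 4 rose and 4 fell. The neutrophil attractant Cxcl2 read 3.79, 4.08, 3.94, 4.06 and 3.84 in controls and 6.43, 5.18, 9.21, 7.71 and 8.35 at 8 h. Array 2 was lowest, and the gene rose by 3.44 ± 0.37, standing 3.30 above 2 h and 2.13 above 1 d. Cxcl1 rose by 1.87 ± 0.38, and Ccl9 and Cxcl12 fell by 1.40 and 1.05. Interferon-induced genes rose in 4 of 28 cases and fell in 5, from Rsad2 at 1.78 ± 0.33 to Ifi47 at -1.04 ± 0.17 and Iigp1 at -1.03 ± 0.15.

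**Figure D4:**
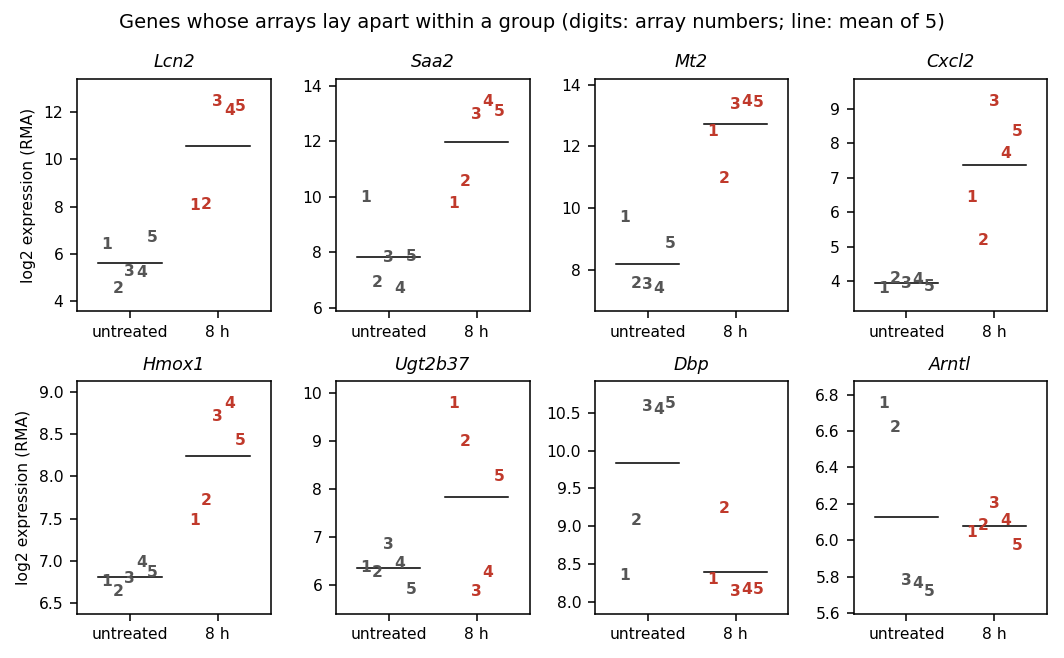
Log2 expression (y axis, RMA values, a scale per panel) of 8 genes whose arrays lay apart within a group, with digits giving the array number and a line at each mean. For Lcn2, Saa2, Hmox1 and Cxcl2, arrays 1 and 2 are the lowest at 8 h; for Dbp, controls 1 and 2 are lowest and for Arntl highest.

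Clock genes differed between controls. Dbp, a clock output gene, read 8.34 and 9.08 on controls 1 and 2 and 10.59, 10.54 and 10.62 on controls 3 to 5, and Arntl, which runs in the opposite phase, 6.75 and 6.62 against 5.78, 5.76 and 5.72. At 8 h Dbp ran from 8.14 to 9.23. Neither gene was called (adjusted p = 0.227 and 0.945), but Dbp was with only the arrays of the groups compared (-1.44, adjusted p = 0.0109), and of 20 clock genes 1 rose and 2 fell. Both genes were picked after their values had been seen, and their part in other results was not tested. In fits chosen after seeing the data, 4711 genes were called without controls 1 and 2, and 5355 without arrays 1 and 2 at 8 h.

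Markers of infiltrating cells stayed near control. Of 13 neutrophil genes and 12 T, NK and B cell genes 0 were called. The mean log2 level of the neutrophil list was 5.91 to 6.06 at 8 h and 5.96 to 6.12 in controls, and that of the T, NK and B cell list 6.27 to 6.45 and 6.30 to 6.45. Of 15 monocyte-derived macrophage genes 0 rose and 3 fell, among them lysozyme Lyz2 at -0.81 ± 0.33 (adjusted p = 0.0455). Leaving out any 1 array ended that last call (adjusted p from 0.0612 to 0.0816). The SD of Lyz2 was 0.07 at 8 h and 0.07 in controls, and its arrays did not overlap. Its larger standard error rests on the spread in all 9 groups of the fit. Of 19 Kupffer cell markers, by contrast, 12 fell and 1 rose, with a median of -0.44. The receptors Csf1r and Adgre1 (F4/80) fell by 0.79 and 0.78, Clec4f was at -0.45 ± 0.14 (adjusted p = 0.0101) and the haemoglobin scavenger receptor Cd163 rose by 0.89 ± 0.24. By array the Kupffer list's median ran from -0.46 to -0.34.

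Of 30 endothelial markers 14 fell and 2 rose (median -0.14). Dnase1l3 fell by 0.58 and the angiopoietin receptor Tek by 0.45, and Stab2, a scavenger receptor of the sinusoids, was at -0.35 ± 0.10. Lyve1 was called higher by 0.75 ± 0.25, but at 8 h arrays 1 and 2 (7.41 and 7.56) lay within the controls and arrays 3 to 5 (8.76 to 8.89) above them, and the call was lost without array 3, 4 or 5 at 8 h or control array 3 (adjusted p from 0.0575 to 0.0742). Of 17 quiescent stellate cell markers 4 fell and 1 rose, with the retinol acyltransferase Lrat at -0.90 ± 0.19 and Pdgfra at 0.53 ± 0.14. Of 28 activated stellate cell and matrix genes 3 rose and 3 fell. Beside both stellate lists stand the 17.7% of all genes that rose and the 24.2% that fell. The matricellular Ccn1 rose by 1.59 ± 0.28, Col3a1 fell by 1.45, and Col1a1 was not called (-0.12 ± 0.12, adjusted p = 0.455). Of 12 cholangiocyte and oncofetal markers 1 rose and 1 fell, and of the few erythroid, pancreas and adipose or mesothelial markers that passed the filter 2 of 3, 1 of 4 and 1 of 4 fell.

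Structural genes of the cell rose in 19 of 37 cases and fell in 6. Anxa2, a membrane-binding annexin, read 7.51, 7.35, 7.37, 7.23 and 7.37 in controls and 10.20, 10.38, 11.02, 9.90 and 11.32 at 8 h, a rise of 3.19 ± 0.22. Its partner S100a10 rose by 2.60 ± 0.23 and the tubulin Tubb6 by 2.96 ± 0.29, while vimentin (Vim), the filament of mesenchymal cells, fell by 0.98. Sprr1a, a cornified envelope protein also found in injured tissue, rose 15.6-fold (3.96 ± 0.50).

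Compared with their neighbours in time, 4749 genes (35.9%) differed between 8 h and 2 h, 2705 higher and 2044 lower at 8 h, and 4194 (31.7%) between 8 h and 1 d, 1443 higher and 2751 lower. The shares that were higher, 57% and 34.4%, moved with the scaling: to 67.6% and 26.9% after a shift of each array to 1 median, 48% and 45.3% after a new quantile normalization and 53.9% and 45.9% with cyclic loess. All 3 comparisons share the 8 h arrays, so their overlap is fixed in part. At 8 h 399 genes (3.01%) stood above control, 2 h and 1 d, and 397 (3.00%) below all 3. With only the arrays of the groups compared these counts were 200 and 291, and with array weights 653 and 488. By the smallest of the 3 differences, those above were led by Sult1e1, Cxcl2, Creld2, Plscr1, Cidec, Slc2a1, Sgms1 and Rras2. For Sult1e1, Cxcl2 and Cidec every control and 2 h array lay under 5.56, and for Sult1e1 every 1 d array as well. Cidec and Cxcl2 overlapped with 1 d. Cidec read 7.80 on array 1 at 1 d, above every 8 h array (5.56 to 7.05), and 3.30 to 3.89 on the other 1 d arrays. Cxcl2 read 5.18 on array 2 at 8 h, under 1 d arrays 3, 4 and 5 (6.06, 5.64 and 5.60). Plscr1, a phospholipid scramblase, was above control by 3.90 ± 0.28, above 2 h by 3.96 and above 1 d by 1.90. For Rras2, a Ras-related GTPase, the 3 differences were 2.41, 2.53 and 1.55, and for Sgms1, a sphingomyelin synthase, 2.25, 1.91 and 1.57. The genes below all 3 were led by Ppp1r3c, Hmgcs1, Ddc, Col3a1, Dixdc1, Nr0b2, Chac2 and Wdr6. Some of these overlapped. For Col3a1, array 2 at 8 h (7.15) lay above control 3 (6.91), 2 h array 3 (6.75) and 1 d arrays 3 and 5 (6.96 and 7.14). Array 1 at 1 d lay within the range at 8 h for Ddc (7.41), Dixdc1 (4.18) and Nr0b2 (7.03), as did 1 d array 3 for Dixdc1 (4.66). Other probe sets of Dixdc1 gave -0.27, 0.03 and -0.12 against control. The aromatic amino acid decarboxylase Ddc was at -2.40 against control, -1.76 against 2 h and -1.39 against 1 d.

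**Figure D5:**
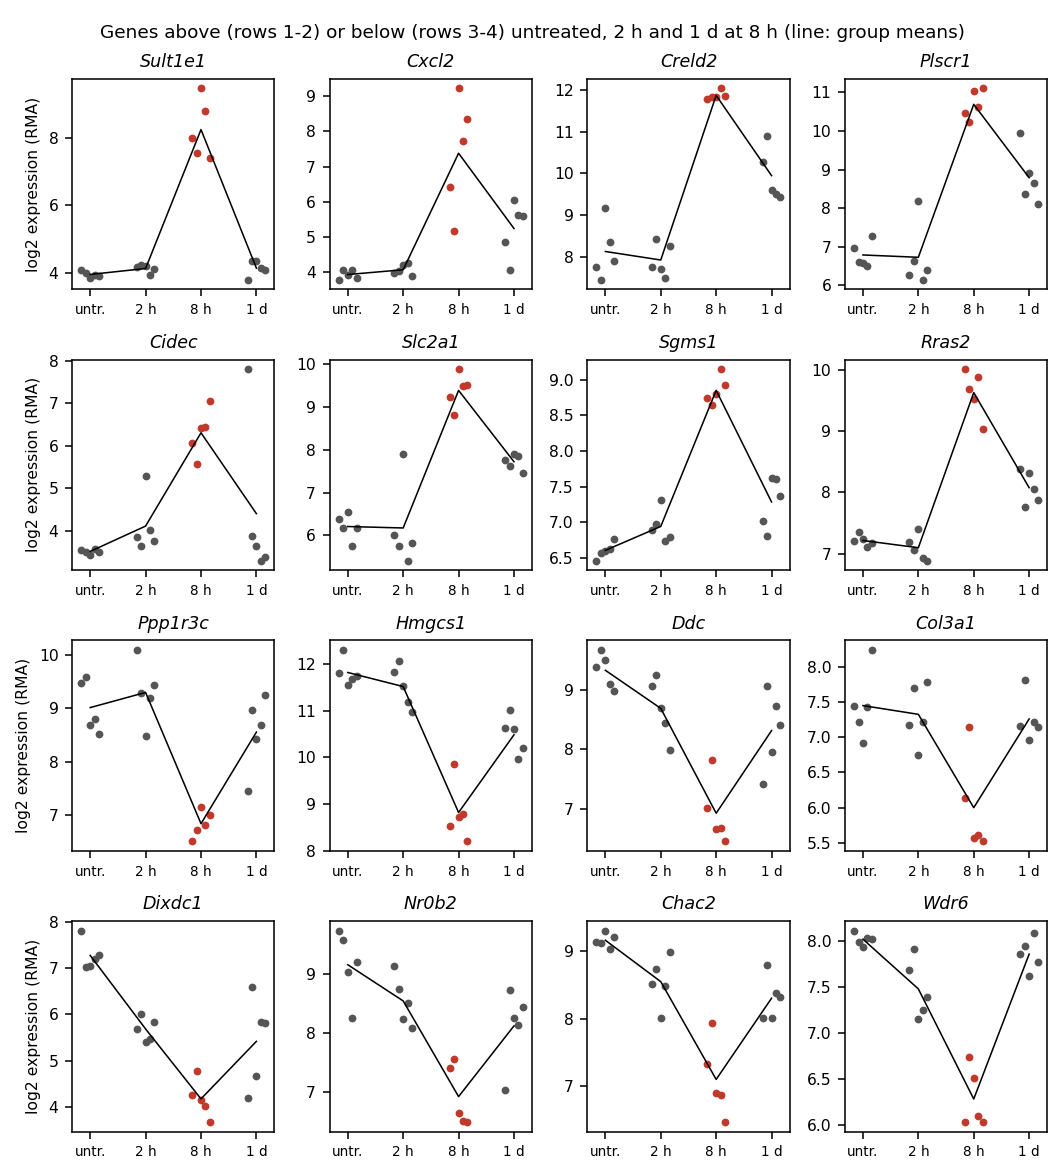
Log2 expression (y axis, RMA values, a scale per panel) of the 8 genes above and the 8 genes below untreated liver, 2 h and 1 d at 8 h, with a point for each of 5 arrays a group and a line through the group means (x axis, groups in order of time, not to scale). Sult1e1 is near 4 in untreated liver, at 2 h and at 1 d and between 7.41 and 9.46 at 8 h; Wdr6 lies between 6.03 and 6.74 at 8 h.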

How the data were processed

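Liver RNA was hybridised as biotin-labelled cRNA, made from oligo-dT primed cDNA, per the labels' protocols. The values used are on the log2 scale, as deposited. Per the submitters' processing notes, the authors used RMA and oligo 1.52.0. RMA gives all arrays 1 distribution of probe intensities before these are summarized, so a shift common to most genes would be largely removed. The deposited values still differ a little: over all arrays the median ran from 5.48 to 5.63 and the interquartile range from 2.38 to 2.67. No other upstream step is given in the sources used.

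Of 45101 probe sets, 34945 named 1 gene through GEO's platform annotation, 932 several and 9160 none, with 64 controls. Symbols were updated by Entrez ID for 34741. A gene was tested where its probe set passed 5.56, the overall median, on 5 or more arrays. This removed 4954 genes, and counts cover the list members that passed.

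All 46 arrays entered 1 fit in limma 3.58.1 under R 4.3.3 (lmFit and eBayes, 37 residual degrees of freedom). The standard errors therefore rest on the spread in all 9 groups, which can be larger or smaller than that of the groups compared. The median standard error of a fold change was 0.0966. P-values were adjusted over all 13239 genes by Benjamini-Hochberg and called under 0.05. Errors after ± are standard errors unless an SD is named. Array measures were compared by exact permutation, with 0.00794 the smallest p possible. The number of arrays limits the precision. Same-numbered arrays at 8 h and control deviated together at r from -0.07 to 0.15, above 0.1 in 2 of 5 pairs, so numbers were not taken to pair arrays. The fit was tested on simulated data. Promoters came from RefSeq's GRCm38.p6 table, searched over 250 bases before each start.

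The members, gene lists and tests were chosen with earlier results of these data known. Genes named follow a rule: by size, 12 rises and 12 falls without overlap; for each list, up to 4 called members in its majority direction and 2 in the other; the 8 most variable called genes at 8 h; 8 above and 8 below control, 2 h and 1 d; and a fixed panel. Genes holding the searched promoter letters are named besides, and Dbp and Arntl were picked after their values were seen. Plots used Python 3.11.15 and matplotlib 3.10.9.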

Additional observations from a re-analysis of the deposited data

Results flagged for a closer look

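Of 434 sets of 5 arrays checked for the named genes (the 8 h and the control arrays of each), 20 (4.61%) held an array whose distance from its nearest neighbour took up more than 0.71 of the group's range, where chance alone gives about 5%. At 8 h these were Cryab on array 4 (4.40, the lowest), Prps2 (6.92), Ifi47 (8.67) and Dbp (9.23) on array 2 (the highest), Igfbp1 on array 4 (13.74, the highest), Tek on array 1 (5.84, the lowest) and Lyz2 on array 5 (7.93, the lowest). Among the controls, array 3 was the highest for Ears2 (6.80), Psmb7 (8.60) and Rplp0 (11.83) and the lowest for Trp53inp1 (8.97) and Lyve1 (6.85). Control array 5 was the highest for Trib3 (7.59), Maff (6.67), Slc40a1 (10.92) and Cyp3a13 (10.02). Control array 2 was the highest for Tob1 (10.97), Ggps1 (6.22) and Lyz2 (8.99), and array 1 the lowest for Cebpb (9.14).

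The change from control differed between 8 h and 2 h for 4749 genes and between 8 h and 1 d for 4194 genes, both against the same controls (limma). Outside the gene results, 620 of 3144 probe sets with no gene name were called at 8 h (19.7%), 55 of them higher and 47 lower by at least 2-fold.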

How the results depend on the processing

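Of 217 gene results, 199 kept their direction and side of the threshold in all alternatives tried, and of 60 list results 42 kept their counts within 1.5 times. A result reversed in 2 cases: Alb rose to 0.21 (adjusted p = 0.00104) with cyclic loess, and Ears2 went to -0.01 (adjusted p = 0.916) with the mean of all probe sets. Fitting only the arrays of the groups compared left 2746 genes called between 8 h and 1 d and 491 beyond control, 2 h and 1 d in 1 direction (796 as reported). Benjamini-Yekutieli adjustment left 2881 against 2 h, 2471 against 1 d and 379 beyond all 3. Testing against a change of 1.2-fold left 2532 of the 5549 genes called against control. Fewer arrays or a stricter threshold enter these by construction. Leaving out 1 array at a time gave 4969 to 5494 genes against control, 789 to 954 by at least 2-fold, 3903 to 4960 against 2 h, 3607 to 4053 against 1 d and 608 to 857 beyond all 3. With the replicate number as a block, which was not taken to be a pairing, 5514, 873, 4713, 4182 and 802 genes were called. With cyclic loess 2736 genes were higher and 2748 lower than control, where 2342 and 3207 were reported. In fits chosen after seeing the data, leaving out arrays 1 and 2 at 8 h gave 1060 genes by at least 2-fold, and leaving out controls 1 and 2 gave 836. Signal near background limits genes removed by the filter.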
